A study of Brassica rapa subsp. pekinensis with 4 samples.

Results

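The genes described here encode proteins of the cytosolic ribosome in shoots of the Chinese cabbage (Brassica rapa ssp. pekinensis) inbred line “4004”, compared after 35 days of vernalization (35D Ver) and without vernalization (0D Ver). A Bra gene was taken as a member when the Arabidopsis locus that the deposited table gives as its match, with the version suffix dropped, was 1 of 53 listed loci of cytosolic ribosomal proteins. This gave 115 genes of the 36698 listed. They match 38 of the 53 loci and 31 of their 39 families. The small subunit was represented by 46 genes (15 loci, 11 families) and the large subunit by 69 genes (23 loci, 20 families). The other 15 loci, among them RPS2C, RPS4A, RPS6A, RPS8A, RPS11A, RPS14A, RPS16A, RPS18A, RPS23A, RPL4D, RPL8A, RPL9B, RPL10B and RPL36A, were the match of no gene in the table, so nothing is reported for them. Most loci were matched by several Bra genes, here called copies.

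Each condition had 2 RNA-Seq libraries of polyadenylated shoot RNA, replicates 1 and 2. The 35D Ver plants were 7 weeks old and had been kept at 5 °C with 12 h of light for 35 days, after growth at 23 °C with 16 h of light. The 0D Ver plants were 2 weeks old and had only the growth at 23 °C with 16 h of light. Cold, age and day length therefore changed together and cannot be told apart in these libraries. Both groups are of the same line, and the labels name no transgene or mutation in either. Shoots of several plants were sampled in each condition. The study's methods describe independent biological replicates and count earlier duplicates of this line among them, and the labels themselves do not say whether the replicates were grown separately. The p-values measure the spread between these libraries.

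The cytosolic ribosome translates the messenger RNA of the nucleus. Its small subunit binds the messenger RNA and reads the codons, and its large subunit joins the amino acids and passes the growing chain through an exit tunnel. Each ribosome holds about equal numbers of most of its proteins, and in Arabidopsis each protein is encoded by a small family of genes, many of which are most active in dividing and growing tissue. Brassica rapa descends from a triplicated genome, so an Arabidopsis locus can have several copies. Mutants of single ribosomal protein loci in Arabidopsis often have narrow, pointed leaves and slow growth.

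The transcripts of this group were higher in 35D Ver shoots by a similar factor in nearly every gene. All 115 genes passed the filter on low counts, and 108 of them (93.9%) were higher under 35D Ver (limma, Benjamini-Hochberg adjusted p below 0.05), against 20.1% of all 29691 tested genes. None was called lower by limma, with or without observation weights (voom), against 20.5% of all tested genes. At an unadjusted p below 0.05, 111 members were higher and 0 were lower. The median log2 fold change of the members was 0.67, which is 1.60-fold, with quartiles of 0.51 and 0.77. Over all tested genes the median was -0.01. The conditions did not overlap in 113 members, 35D Ver being the higher in each, against 36.0% of all tested genes with the same order. The shift was moderate in size, with a log2 fold change between 0.25 and 1.00 in 111 members. Only 1 member, a copy of RPS24A, also passed the DEG thresholds (a log2 fold change of 1 or more with a normalized read count no lower than 500). This is near the background, since 1.34% of all tested genes passed them in the same direction. A normalized read count is a count divided by the library's scaling factor, and log2 fold changes were taken on log2(normalized read count + 1), always 35D Ver over 0D Ver.

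In the summed counts, the members took 1.86% and 2.06% of the reads of the 35D Ver libraries, against 1.23% and 1.24% in the 0D Ver libraries. Their summed normalized read counts were 398669 and 426801 under 35D Ver, against 256793 and 261626 under 0D Ver, a ratio of means of 1.59. Both 35D Ver libraries were thus above both 0D Ver libraries by far more than the replicates of either condition differed. Within the 35D Ver pair, replicate 2 was above replicate 1 in 98 of the 115 members (85.2%), and within the 0D Ver pair in 71 (61.7%). Of all tested genes, 48.3% and 50.5% were higher in replicate 2 of the 35D Ver and of the 0D Ver pair.

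**Figure D1:**
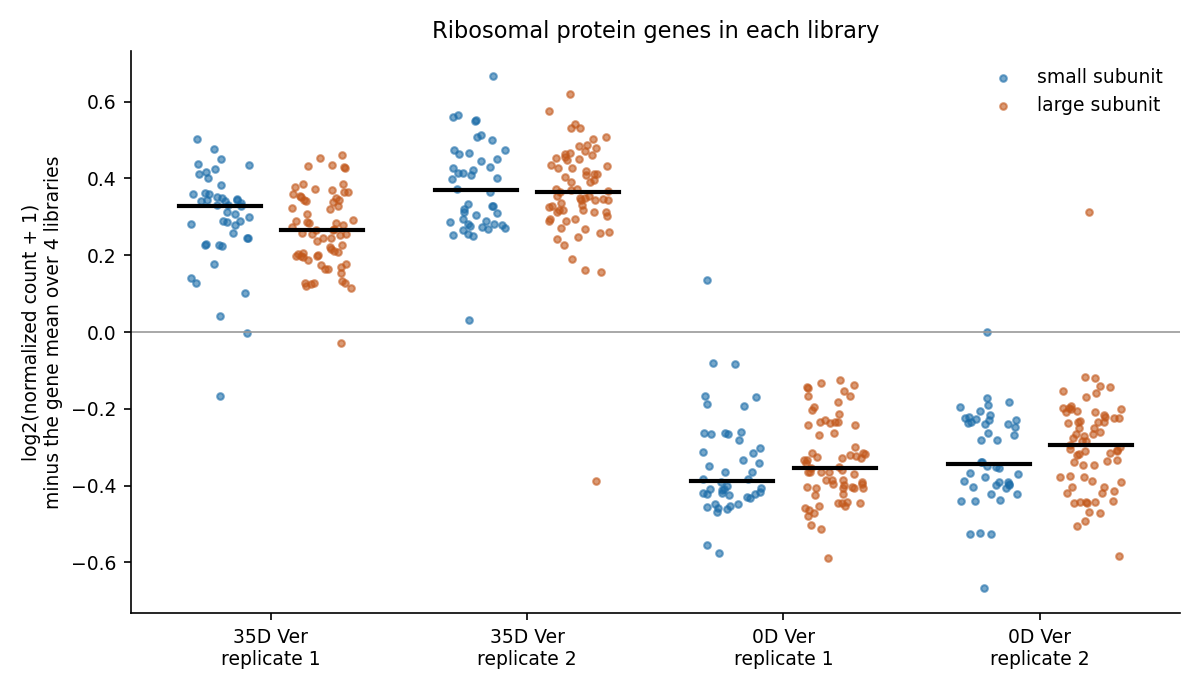
Ribosomal protein genes in each library. Each point is 1 of the 115 member genes, as its log2(normalized read count + 1) minus its mean over the 4 libraries (y axis, log2 units), for the small (blue) and the large (orange) subunit, and black bars are medians. The median over all members was 0.29 and 0.37 in the 35D Ver libraries and -0.36 and -0.30 in the 0D Ver libraries, and few points crossed to the other side of 0.

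The small and the large subunit shifted by about the same amount. The small subunit summed to 173087 and 181488 normalized read counts under 35D Ver, against 108796 and 110839 under 0D Ver (ratio of means 1.61). The large subunit summed to 225582 and 245313 under 35D Ver, against 147997 and 150787 under 0D Ver (ratio of means 1.58). The limma test called 43 of 46 small subunit genes and 65 of 69 large subunit genes higher, with median log2 fold changes of 0.69 and 0.67, and the medians differed by 0.01. The ratio of the small to the large subunit sum was 0.767 and 0.740 in the 35D Ver libraries, against 0.735 and 0.735 in the 0D Ver libraries. The difference between the 35D Ver replicates in this ratio was larger than the distance of replicate 2 from the 0D Ver libraries. The subunit difference was not tested, and an exact permutation test of this ratio over 2 libraries against 2 cannot give a two-sided p below 0.33.

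The spread among the members was narrow. The interquartile range of their log2 fold changes was 0.26, against 0.73 over all tested genes and 0.60 over the 8983 tested genes with a mean normalized read count of at least 500. Within 0.25 of the members' own median lay 79.1% of the members, against 36.8% of all tested genes and 43.0% of those with at least 500 around their medians. The log2 fold change of 111 members was between 0.25 and 1.00. The 103 members with a mean of at least 500 ranged from 0.25 to 1.01, and 100 of them were called higher, whereas the 12 with fewer counts ranged from -0.19 to 1.12, and 8 were called higher. The widest values were therefore in genes with few counts, where the standard errors were also larger. Standard errors of the log2 fold change ran from 0.10 to 0.37 over the members, with a median of 0.11.

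**Figure D2:**
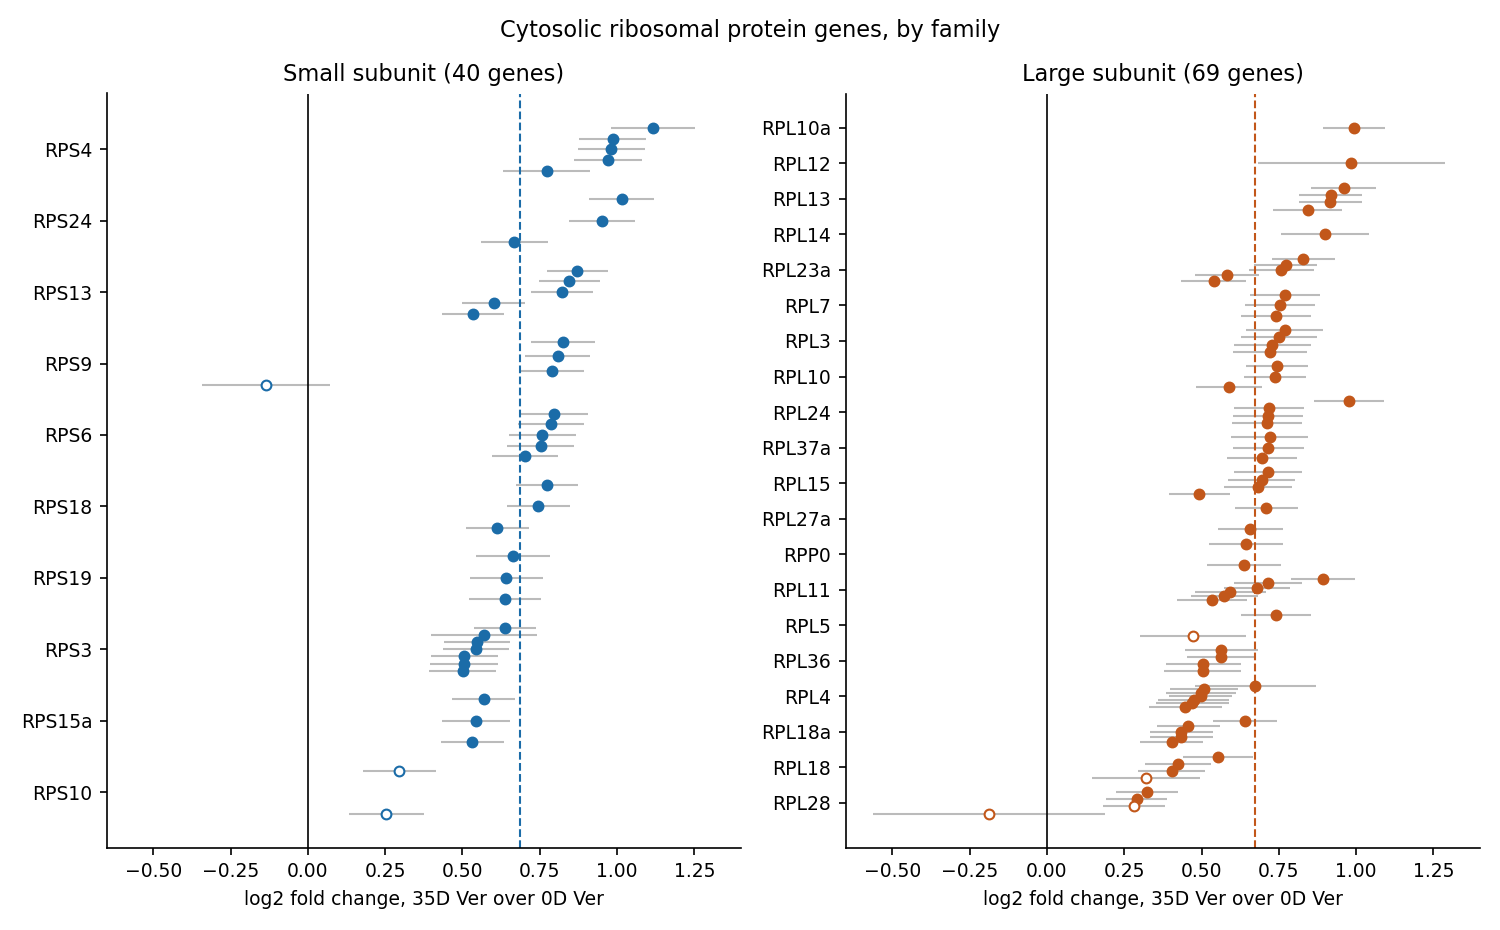
Log2 fold change of the member genes, by family, for 10 small and 20 large subunit families. Each point is 1 gene and its bar is the standard error from limma (x axis, log2 fold change of 35D Ver over 0D Ver), families are ordered by their median within each subunit, and open points were not called. The dashed lines mark the medians over all members of a subunit, 0.69 (small) and 0.67 (large), and all but 2 points lie to the right of 0.

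In the small subunit, the proteins at the messenger RNA entry side were matched by RPS3 and RPS9. RPS3 had 7 genes, of which 4 match RPS3A (AT2G31610), 1 RPS3B (AT3G53870) and 2 RPS3C (AT5G35530), and all were higher, by log2 fold changes of 0.50 to 0.64. The RPS3A copy Bra022859 had 8296 and 8608 normalized read counts in the 35D Ver libraries, against 5900.2 and 6013 in the 0D Ver libraries (log2 fold change 0.50 ± 0.11 SE, limma adjusted p = 0.00706). The replicates of each condition were close together and the conditions did not overlap. The other copies had nearly the same counts, with 8231 and 8548 in Bra018226 under 35D Ver, against 5878 and 5929 under 0D Ver, and 8174 and 8431 in Bra022851 under 35D Ver, against 5811 and 5923 under 0D Ver. Without 0D Ver replicate 1, the adjusted p of these RPS3A copies was 0.0552 for Bra022859, 0.0514 for Bra018226 and 0.0559 for Bra022851 (limma). How reads that fit several copies were counted is not given in the sources used here, so the values of such near-identical copies are uncertain for each copy. RPS9 had 3 copies matching RPS9B (AT5G15200), all higher by 0.79 to 0.83, and 1 gene matching RPS9C (AT5G39850), Bra040853, with 41.2 and 47.4 under 35D Ver, against 51.02 and 46.4 under 0D Ver (log2 fold change -0.14, limma adjusted p = 0.631). The values of Bra040853 overlapped between the conditions. This gene made up 0.324% and 0.344% of the RPS9 sum under 35D Ver, against 0.676% and 0.609% under 0D Ver.

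RPS6 is the protein that S6 kinases phosphorylate downstream of the kinase TOR. Its 5 copies, all matching RPS6B (AT5G10360), were among the members with the most counts and were all higher, by 0.70 to 0.80. The copy with the most counts, Bra009039, had 8997 and 9309 normalized read counts under 35D Ver, against 5402 and 5457 under 0D Ver (log2 fold change 0.75 ± 0.11 SE, limma adjusted p = 0.00103). Bra006056 had 8738 and 8932 under 35D Ver, against 5053 and 5110.2 under 0D Ver, and in both genes the conditions lay far apart beside the small difference between replicates. The copies Bra010227, Bra011291 and Bra028590 had log2 fold changes of 0.79, 0.76 and 0.70.

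The largest shifts among the small subunit members were in RPS4 and RPS24. RPS4 is a protein of eukaryotes and archaea, and its genes had log2 fold changes of 0.77 to 1.12, all called higher. Bra033109, the match of RPS4D (AT5G58420), had 419.5 and 487 normalized read counts under 35D Ver, against 224 and 193 under 0D Ver (log2 fold change 1.12 ± 0.14 SE, limma adjusted p = 0.000448), the largest value among the members. It held 2.63% and 2.76% of the RPS4 sum under 35D Ver, against 2.56% and 2.32% under 0D Ver, and the rest came from 4 copies of RPS4B (AT5G07090). Of these, Bra028708 had 5970.1 and 6472 under 35D Ver, against 3206 and 3067 under 0D Ver (log2 fold change 0.99), and Bra005923 had 4409 and 4884 under 35D Ver, against 2408 and 2291 under 0D Ver (log2 fold change 0.98). RPS24, needed in yeast and human cells for maturation of the small subunit RNA, had 3 genes matching RPS24A (AT3G04920). Bra009989 had 3764 and 3789 under 35D Ver, against 1782 and 1959 under 0D Ver (log2 fold change 1.01 ± 0.10 SE, limma adjusted p = 0.000195), and was the only member that passed the DEG thresholds, although without 0D Ver replicate 1 its log2 fold change was 0.94. Its 35D Ver replicates were almost equal and far above both 0D Ver replicates.

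Among the members, RPS10 had the smallest family shift, and neither of its copies was called. Both copies match RPS10B (AT5G41520), whose mutation in Arabidopsis reduces shoot branching in a strigolactone signalling mutant. Genes of other RPS10 loci, outside the listed ones, had larger shifts and are given below, so the small shift is that of RPS10B. Bra025492 had 871 and 1008 normalized read counts under 35D Ver, against 799.7 and 729 under 0D Ver (log2 fold change 0.30 ± 0.12 SE, limma adjusted p = 0.0755). Bra028498 had 859 and 1027 under 35D Ver, against 811 and 764 under 0D Ver (log2 fold change 0.25 ± 0.12 SE, limma adjusted p = 0.124). In both genes the conditions did not overlap, but the 35D Ver replicates differed by more than the lower of them differed from 0D Ver replicate 1. Without 35D Ver replicate 1, both were called, at 0.43 in Bra025492 and 0.41 in Bra028498 (limma adjusted p = 0.0406 and 0.0455). The other small subunit families lay in between, with every member gene called higher. The 3 copies of RPS15aA (AT1G07770) were higher by 0.53 to 0.57, the 3 of RPS19A (AT3G02080, which yeast needs for small subunit maturation) by 0.64 to 0.66, the 3 of RPS18C (AT4G09800, a protein of the subunit's head) by 0.61 to 0.77 and the 5 of RPS13 (AT4G00100, whose mutant is pointed first leaf 2) by 0.54 to 0.87.

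In the large subunit, RPL3 reaches close to the peptidyl transferase centre, and its 4 copies, matching RPL3A (AT1G43170), were among the members with the most counts. Bra024986 had 9742 and 11301 normalized read counts under 35D Ver, against 6549 and 6117 under 0D Ver (log2 fold change 0.73 ± 0.12 SE, limma adjusted p = 0.00222). Bra035298 had 9264 and 10688 under 35D Ver, against 6089.6 and 5739 under 0D Ver, and Bra027986 had 8268 and 9445 under 35D Ver, against 5518 and 5199 under 0D Ver. The 4 copies were all higher, by 0.72 to 0.77, and in each the 35D Ver replicates differed more than the 0D Ver replicates. RPL10 binds late in large subunit maturation and, in Arabidopsis, is a target of the NIK1 receptor kinase in antiviral defence. Its 3 copies of RPL10A (AT1G14320) were higher, by 0.59 in Bra016706, 0.74 in Bra019662 and 0.75 in Bra026839, and the copy with the most counts, Bra016706, had 4692 and 5024 under 35D Ver, against 3151 and 3303 under 0D Ver.

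RPL5 and RPL11 bind the 5S ribosomal RNA together and enter the large subunit as one particle. Bra013215, the match of RPL5A (AT3G25520, whose Arabidopsis mutants change leaf polarity), had 6697 and 7476 normalized read counts under 35D Ver, against 4130.1 and 4340.1 under 0D Ver (log2 fold change 0.74 ± 0.11 SE, limma adjusted p = 0.00137). Bra037493, the match of RPL5B (AT5G39740), had 99.8 and 118 under 35D Ver, against 77.5 and 78.1 under 0D Ver (log2 fold change 0.47 ± 0.17 SE, limma adjusted p = 0.056), and was not called although the conditions did not overlap. RPL5A held 98.5% of the RPL5 sum in each 35D Ver library, against 98.2% in each 0D Ver library. The 6 copies of RPL11A (AT2G42740) were all higher, by 0.53 in Bra017591, 0.57 in Bra021990, 0.59 in Bra025058, 0.68 in Bra013342, 0.71 in Bra012580 and 0.89 in Bra014558. Bra014558, at the top of this range, had 1799.8 and 1958 under 35D Ver, against 1028 and 995 under 0D Ver.

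Proteins of the stalks and of the exit tunnel moved in the same direction. RPL10aB (AT2G27530), known as PIGGYBACK1 for its effect on leaf polarity in Arabidopsis, belongs to the L1 stalk. Its match Bra012012 had 2728 and 2861 normalized read counts under 35D Ver, against 1398 and 1407 under 0D Ver (log2 fold change 0.99 ± 0.10 SE, limma adjusted p = 0.00017), the lowest adjusted p of the members. RPP0 anchors the acidic proteins of the other stalk and RPL12 lies at its base. The copies of RPP0B (AT3G09200) were both higher by 0.64, with 5699.9 and 6621 in Bra029752 under 35D Ver, against 4105 and 3797 under 0D Ver, and 5022 and 5882 in Bra001324 under 35D Ver, against 3613 and 3349 under 0D Ver. Bra005214, the match of RPL12A (AT2G37190), rests on very few reads, with 17.4 and 20.97 under 35D Ver, against 9.81 and 8.54 under 0D Ver (log2 fold change 0.99 ± 0.30 SE, limma adjusted p = 0.0303), and it was not called without any 1 of the 4 libraries (adjusted p = 0.0586 to 0.156). RPL4 lines the exit tunnel, and RPL23a stands at its rim, where the signal recognition particle docks. The 7 copies of RPL4A (AT3G09630) were higher by 0.45 to 0.67, the 3 of RPL23aA (AT2G39460) by 0.76 to 0.83 and the 2 of RPL23aB (AT3G55280) by 0.54 to 0.58.

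RPL24 had genes for both of its listed loci. RPL24B (AT3G53020) is SHORT VALVE1, which in Arabidopsis helps ribosomes to reinitiate after upstream open reading frames, and its 3 copies were higher by 0.71 to 0.72. Bra006969 had 6418 and 6549 normalized read counts under 35D Ver, against 3721 and 4212 under 0D Ver, and the conditions were far apart. The values of Bra019632 (6067 and 6193 under 35D Ver, against 3514 and 3965 under 0D Ver) and Bra028546 (6147 and 6267 under 35D Ver, against 3536 and 4026 under 0D Ver) were close to them. Bra005258, the match of RPL24A (AT2G36620), had 3195 and 3439.6 under 35D Ver, against 1570.0 and 1806 under 0D Ver (log2 fold change 0.98 ± 0.11 SE, limma adjusted p = 0.000355). It took 14.6% and 15.3% of the RPL24 sum under 35D Ver, against 12.7% and 12.9% under 0D Ver, so its share was higher in both 35D Ver libraries.

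The remaining large subunit families are structural proteins of the outer shell or of the RNA core. RPL13B (AT3G49010) had 4 copies, all higher by 0.84 to 0.96. The one at the top, Bra019574, had 4086 and 4395 normalized read counts under 35D Ver, against 2218 and 2139.5 under 0D Ver. The single gene of RPL14A (AT2G20450) was higher by 0.90, the 3 copies of RPL7B (AT2G01250) by 0.74 to 0.77, the 2 of RPL27aC (AT1G70600) by 0.66 to 0.71, the 3 of RPL37aC (AT3G60245) by 0.70 to 0.72, the 4 of RPL15A (AT4G16720) by 0.49 to 0.71, the 4 of RPL36B (AT3G53740) by 0.50 to 0.56 and the 5 of RPL18aB (AT2G34480) by 0.40 to 0.64, every gene being called. Most copies of RPL36B and of RPL18aB were not called without 0D Ver replicate 1. RPL18B (AT3G05590) had 4 copies, of which 3 were called. Bra009940 had 8392 and 9125 under 35D Ver, against 5791 and 6142 under 0D Ver (log2 fold change 0.55 ± 0.11 SE, limma adjusted p = 0.00564, or 0.0522 without 0D Ver replicate 1). Bra039423, which was not called, had 120.0 and 156 under 35D Ver, against 109 and 109.8 under 0D Ver (log2 fold change 0.32, limma adjusted p = 0.174).

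RPL28 (RPL28A, AT2G19730), a protein that budding yeast lacks, was at the bottom of the large subunit members, with 2 of its 4 copies called higher. Bra031093 had the largest shift of them (log2 fold change 0.32 ± 0.10 SE, limma adjusted p = 0.0309). It was not called when the replicate number was added to the fit, nor without any 1 of the 4 libraries. Bra036710 had 2492 and 2549.8 normalized read counts under 35D Ver, against 2059.6 and 2064 under 0D Ver (log2 fold change 0.29 ± 0.10 SE, limma adjusted p = 0.0456). Bra039014 had 2463 and 2519 under 35D Ver, against 2046 and 2050.4 under 0D Ver (log2 fold change 0.28 ± 0.10 SE, limma adjusted p = 0.0502). These copies had nearly equal counts and fell on either side of the threshold with nearly equal values, and replicates of each condition were close in both. Bra036710 was not called without any 1 of the 4 libraries (limma adjusted p = 0.0812 to 0.164). Bra034445 had 10.1 and 6.38 under 35D Ver, against 7.85 and 10.98 under 0D Ver (log2 fold change -0.19 ± 0.37 SE, limma adjusted p = 0.717), so its values overlapped and its depth could not show a shift of the size seen in the other members.

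By family, the summed normalized read counts of the member genes were higher under 35D Ver in all 31 families. The log2 ratios of these sums ran from 0.28 in RPS10 to 1.06 in RPL12, with a median of 0.70. Genes of the same families at loci outside the 53 are not in these sums. The ratios and their order therefore describe the listed loci and not whole families. The RPL12 value rests on its single member gene, which had few reads. Among the sums of member genes, RPL10a followed with 0.99 and RPS4 with 0.98. In 26 of the 31 families every member gene was called higher. The exceptions were RPS9, RPS10, RPL5, RPL18 and RPL28. Levels are not compared between genes or families here, because gene lengths were not used.

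Copies of the same locus mostly shifted together. Of the 38 loci, 29 had 2 or more genes, 106 genes in all, with at most 7 at a locus. The range of the log2 fold change within a locus had a median of 0.10, from 0.003 in RPS3C to 0.51 in RPL28A, where the gene with few reads set the lower end. The pooled standard deviation within loci was 0.11, against a standard deviation of 0.24 between the medians of the loci. Near-identical copies may share reads, and the part of this in the narrow ranges was not tested. The range was above 0.25 at 5 loci, among them RPL28A, RPL11A, RPS24A and RPS13.

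At RPL11A, Bra014558 held 13.6% and 13.1% of the sum of the 6 copies under 35D Ver, against 11.9% and 10.8% under 0D Ver. The shares of the conditions did not overlap, and the replicates of each condition were closer to each other than to the other condition. At RPS24A, Bra040115 held 21.5% and 21.3% of the sum under 35D Ver, against 25.02% and 25.58% under 0D Ver. At RPS13, Bra004901 held 16.7% and 17.03% under 35D Ver, against 19.1% and 19.6% under 0D Ver. These loci and copies were chosen after their values were seen, and the difference between copies was not tested.

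**Figure D3:**
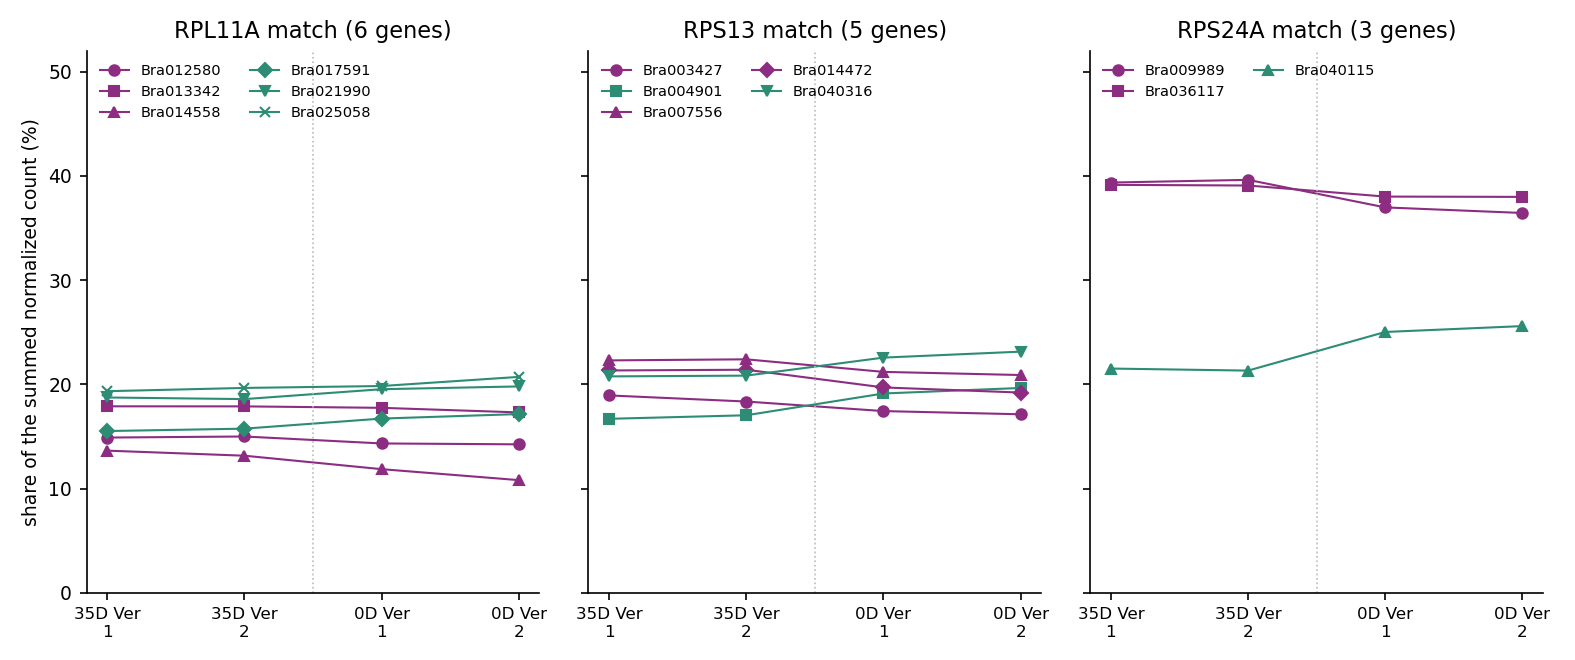
Share of each copy in the summed normalized read count of its locus, for 3 loci whose copies differed in shift. Points are libraries (x axis) and the y axis is the percentage of the locus sum in that library, from 0, with lines joining the points of 1 gene. Purple genes had a higher mean share under 35D Ver and green genes a lower one, and at RPS24A the green gene Bra040115 held 21.5% and 21.3% under 35D Ver, against 25.02% and 25.58% under 0D Ver.

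Cytosolic ribosomal protein genes outside the 53 loci had the same median. Of 108 tested small subunit genes of other loci, 102 were higher and 0 lower (limma; 102 higher and 0 lower at an unadjusted p below 0.05), with a median log2 fold change of 0.67, and of 161 large subunit genes, 153 were higher and 0 lower (157 and 0 unadjusted), with a median of 0.67. The most and the least shifted called genes of the small subunit were Bra029112 (AT5G52650, RPS10C), with 1970.2 and 2135 normalized read counts under 35D Ver, against 843 and 862 under 0D Ver (log2 fold change 1.27), and Bra026484 (AT5G23740, RPS11C, log2 fold change 0.32). RPS10C thus stood above the range of the members, while the RPS10B copies were at its lower end. The genes of the other RPS10 locus, AT4G25740, lay between them and were all called higher, at 0.87 in Bra003118, 0.86 in Bra013915, 0.80 in Bra019143 and 0.79 in Bra010448. In the large subunit, Bra000159, the match of RPP0A (AT2G40010), had 1825 and 2254 under 35D Ver, against 628 and 610.3 under 0D Ver (log2 fold change 1.71 ± 0.12 SE, limma adjusted p = 3.32e-05), and Bra003991 (AT1G69620, RPL34B) had a log2 fold change of 0.32. RPP0A, RPP0B and AT3G11250 encode the same stalk protein, and their log2 fold changes were 1.71 in RPP0A, 0.64 in both RPP0B copies and 0.63 in Bra034055, the match of AT3G11250. The further RPS10 and RPP0 loci were added after their values were seen.

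Ribosome assembly factors, which process ribosomal RNA and load the proteins, had a median of 0.75, with 32 of 39 tested genes higher and 0 lower (limma; 33 and 0 at an unadjusted p below 0.05). Bra030816, a match of NOP56, a core protein of the particles that methylate ribosomal RNA, had 2541 and 3428 normalized read counts under 35D Ver, against 1164 and 1045 under 0D Ver (log2 fold change 1.42 ± 0.15 SE, limma adjusted p = 0.000232). Bra006828, a match of RID2, which acts in ribosomal RNA processing, was at 0.36. Translation initiation and elongation factors had a median of 0.42, with 31 of 48 higher and 1 lower. Among the genes of eEF1B, the exchange factor that recharges elongation factor eEF1A, Bra032367 was higher by 0.96, whereas Bra008915 had 97.1 and 86.6 under 35D Ver, against 308 and 278 under 0D Ver (log2 fold change -1.66, limma adjusted p = 8.54e-05). The count of translation factors called higher was 17 without 0D Ver replicate 1 and 16 without 0D Ver replicate 2.

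Ribosomal proteins of the plastid, which build a separate ribosome inside the chloroplast, had a median log2 fold change of 0.20. Of 51 tested genes, 18 were higher (35.3%) and 0 lower (limma; 23 and 2 at an unadjusted p below 0.05), and the called genes ran from 0.31 in Bra001489 (PRPS10) to 0.75 in Bra021853 (PRPL28). Without 0D Ver replicate 2, 9 were higher. The list of the kinase TOR and other regulators of ribosome production had a median of 0.05, and 13 of its 24 tested genes had a positive log2 fold change. Of the 24, 1 was higher and 2 were lower (limma; 4 and 5 at an unadjusted p below 0.05). Both adjusted shares were under the 20.1% and 20.5% of all tested genes. The list median does not describe TOR itself, whose genes Bra015251, Bra018828 and Bra039647 were at -0.47, -0.22 and -0.21 and were not called. The called genes, all named because they are few, were Bra016570 (RACK1A, a scaffold protein on the small subunit) at 0.35, Bra022283 (LST8-1, a partner of TOR) at -0.53 and Bra028640 (ANAC082, a transcription factor of the ribosomal stress response) at -0.48. RACK1A was not called without 35D Ver replicate 2, 0D Ver replicate 1 or 0D Ver replicate 2 (limma adjusted p = 0.0582 to 0.209), nor ANAC082 without the same libraries (Bra028640, 0.0724 to 0.153), nor LST8-1 without 35D Ver replicate 2 or 0D Ver replicate 2 (0.0728 and 0.0587). All these lists were drawn up with earlier results of these data known, and none of the differences between lists was tested.

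**Figure D4:**
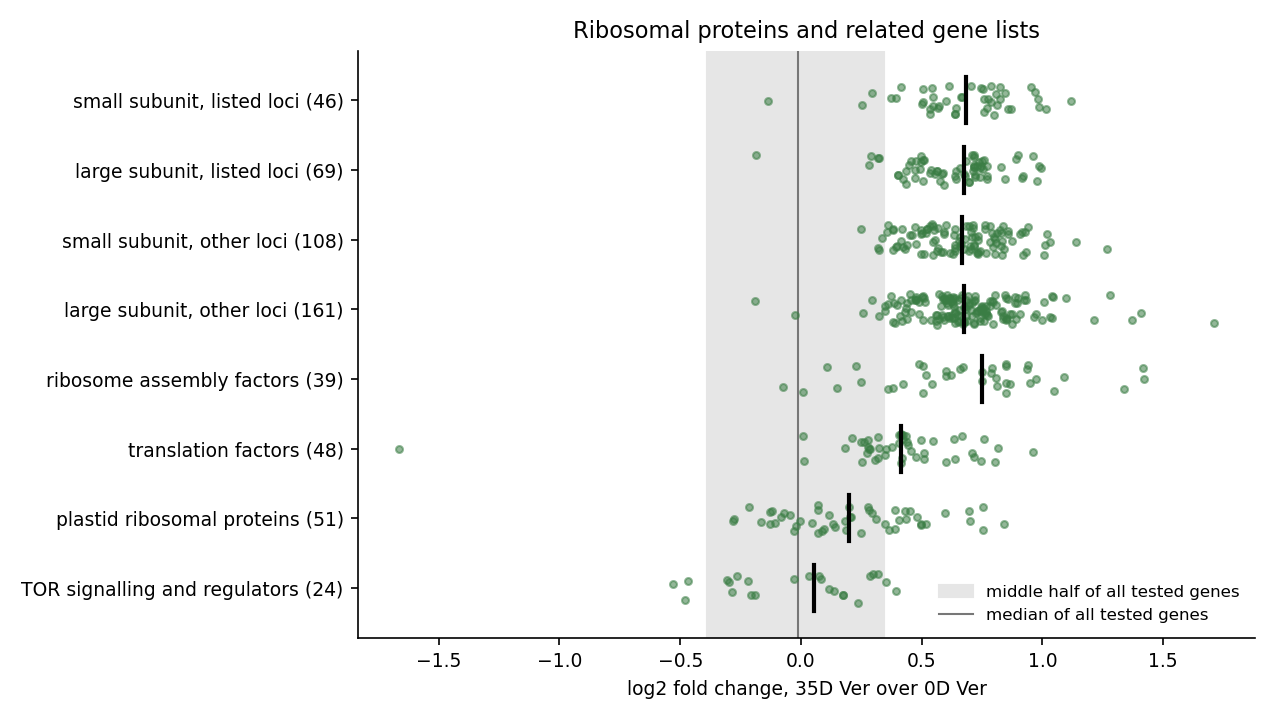
Log2 fold change of 35D Ver over 0D Ver (x axis) of each tested gene in the lists named on the y axis, with the number of tested genes in brackets. Black bars are list medians, the grey band lies between the quartiles of all tested genes, and the grey line is their median of -0.01. The 4 sets of cytosolic ribosomal proteins have medians of 0.67 to 0.69, the assembly factors 0.75, the translation factors 0.42, the plastid ribosomal proteins 0.20 and the TOR list 0.05.

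Markers of cell types were read beside these values, since in whole shoots fewer cells of a type and less RNA per cell cannot be told apart. Markers of dividing cells and meristems summed to 1063 and 1261 normalized read counts under 35D Ver, against 1060 and 1173 under 0D Ver, and 2 of 9 tested genes were higher (22.2%, against 20.1% of all tested genes, so near the background) and 0 lower (limma; 2 and 0 at an unadjusted p below 0.05). The meristem genes KNAT1 and STM were near the floor of the table under 0D Ver. KNAT1 had 26.6 and 12.8 under 35D Ver, against 0.981 and 2.44 under 0D Ver (log2 fold change 2.90, limma adjusted p = 0.00192). KNAT1 passed the filter on low counts only through its 35D Ver values. The filter thus favoured its call, which is 1 of the 2 higher, and that call cannot be taken as support for a shift. Leaf mesophyll markers summed to 250633 and 200107 under 35D Ver, against 186677 and 185067 under 0D Ver. All 3 root genes were near the floor in every library, as was WUS. The senescence marker SAG12, which is used for ageing leaves, had 149 and 1640.0 in Bra021998 under 35D Ver, against 0.981 and 2.44 under 0D Ver, so it was near the floor under 0D Ver and differed widely between the 35D Ver replicates. The part of cell composition and of ageing leaves in the shift of the ribosomal protein genes was not tested.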

How the data were processed

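Shoot RNA of 2 libraries per condition was analysed, grouped by the condition and replicate number in the sample titles. After trimming with SolexaQA, the authors mapped reads with Bowtie2 to the coding sequences of B. rapa and deposited a number of reads per gene for each library, not scaled to depth. These deposited values are whole numbers with commas and a lowest value of 1, as if 1 had been added, so they were not treated as plain counts and no count model was run. The labels name a TruSeq RNA and a TruSeq Stranded mRNA kit, and whether counting used strand is not given in the sources used here. Summed counts per library ran from 17221386 to 23428420. Values were divided by TMM scaling factors (1.092 and 1.097 for 35D Ver replicates 1 and 2, 1.019 and 0.8193 for 0D Ver, trims of 0.3 and 0.05), computed in R 4.3.3 on the 29691 genes that had 10 or more counts (after scaling to the median depth) in 2 or more libraries and a total of 15 or more. limma 3.58.1 (trend, robust) was fitted to log2(value + 1) of all 4 libraries with condition as its only term, with Benjamini-Hochberg adjustment over all tested genes, called below 0.05. Replicates differed beyond sampling noise (chi-square per degree of freedom 10.2 for 35D Ver and 9.30 for 0D Ver). The fit was also run on simulated counts in which a small share of genes changed, in both directions. Those changes were larger than the median shift of the members, so a shared shift of this size was not simulated. The DEG thresholds used the higher of the condition means.

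The members and all gene lists were chosen with earlier results of these data known, and list members and names come from general knowledge of Arabidopsis. Genes named were, in each subunit, the 4 with the largest and the 4 with the smallest log2 fold change and the 4 with the most normalized counts, all copies of RPS6, RPL5, RPL10, RPL11, RPL24 and RPP0, and the most and least shifted called gene of each other list. The genes of 1 small subunit family enter the counts and medians but are not reported here. Alternatives were other scaling, filters, pseudocounts, weights and thresholds, a replicate block, and each library left out. Gene positions, lengths and sequences were left out, as the reference table on hand belongs to a different assembly without Bra identifiers. Plots were drawn with matplotlib 3.10.9.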

Additional observations from a re-analysis of the deposited data

How the results depend on the processing

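The count of ribosomal protein genes called higher was 108 of 115. The count called lower was 0, and only this count of 0 also held under all 14 alternatives and at an adjusted p below 0.01. Other scaling factors (median of ratios, summed counts only, TMM without these genes), other filters, a pseudocount of 0.1, 1 subtracted from every deposited value and voom weights gave 107 to 110 genes higher, and moved the median of all tested genes by at most 0.02. An adjusted p below 0.01 left 90. Without 1 library the count ran from 87 (without 0D Ver replicate 1) to 105 (without 35D Ver replicate 1), with a lone library assumed to vary like the other condition, the median log2 fold change from 0.61 to 0.73, the interquartile range from 0.25 to 0.28, and the small minus large subunit median from -0.00699 (without 35D Ver replicate 1) to 0.079 (without 0D Ver replicate 2). Bra034445 (RPL28A), at -0.19, came to 0.11 without 35D Ver replicate 2 and to -0.42 without 0D Ver replicate 1, and rests on few reads in every library. The deviations of same-numbered libraries had a correlation of -0.17 over the tested genes. The labels do not say whether same-numbered libraries were grown or prepared together, and a correlation from 2 libraries per condition cannot settle it. With the replicate block, 104 genes were higher, among the genes no longer called being Bra031093 and Bra036710. With the numbers crossed, chosen after seeing the data, 112 were higher. Of the 43 named genes' values under the alternatives, 572 kept direction and call, 14 lost the call, 12 of them with a library left out, 10 gained it and 1 changed sign. The replicate block also gave 17 translation factors higher in place of 31. With 2 libraries per condition, the genes with the fewest reads cannot show shifts of this size reliably. These were Bra005214 (RPL12A) and the RPL28A copy Bra034445, with standard errors of 0.30 and 0.37. Bra040853 (RPS9C) had somewhat more reads, with a log2 fold change of -0.14 and a standard error of 0.21. An outlying library cannot be recognised.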

Other observations

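Genes of the photosynthetic leaf cell did not move as a group. RCA, the activase of the carbon-fixing enzyme Rubisco, was higher under 35D Ver in all 3 of its genes. Bra017055 had 64669 and 51864 normalized read counts under 35D Ver, against 39206 and 37649 under 0D Ver (log2 fold change 0.59 ± 0.15 SE, limma adjusted p = 0.0155). LHCA1, an antenna protein of photosystem I, was lower under 35D Ver in both of its genes. Bra007109 had 15362 and 12194 under 35D Ver, against 21975 and 23657 under 0D Ver (log2 fold change -0.74 ± 0.15 SE, limma adjusted p = 0.00461). None of the RCA genes was called without 0D Ver replicate 1 or without 0D Ver replicate 2 (limma adjusted p = 0.0951 and 0.116 in Bra017055), and the other LHCA1 gene, Bra003198, was not called without 0D Ver replicate 2 (adjusted p = 0.083). The 2 genes of RBCS1A and the 3 of PRK were not called.

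Of the cell cycle genes, CYCB1;1 (Bra011769), a cyclin of the entry into mitosis, had 82.4 and 124 normalized read counts under 35D Ver, against 52.01 and 65.9 under 0D Ver (log2 fold change 0.78 ± 0.24 SE, limma adjusted p = 0.0292). It was not called without 35D Ver replicate 2 or without 0D Ver replicate 1 (limma adjusted p = 0.173 and 0.146). The genes of CDKB1;1, CDKB2;1, CDKB2;2, KNOLLE and PCNA1, which act in the cell cycle and in cell plate formation, were not called.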
